A study of Medicago sativa with 9 samples.

Results

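A set of 129 alfalfa leaf lncRNAs (RNAs of 200 bases or more that the authors predicted to be non-coding) was listed at 0 in every low selenite library and above 0 in the other 6. They were selected by a fixed rule on the deposited FPKM values (fragments counted relative to transcript length and library size). A transcript had to be at 0 in low Se 1, 2 and 3, above 0 in each control and each high Se library, and at a mean of at least 0.5 FPKM over those 6. The 129 transcripts came from 127 loci and made up 0.199% of the 64684 listed transcripts. As the low Se values chose the set, its difference from the other groups follows from the rule and is only described.

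The libraries came from leaves of Medicago sativa, cultivar Kangsai, grown in a field and sprayed 3 times, 7 days apart, once the plants stood 20 cm tall. The low Se spray held 100 mg/L and the high Se spray 500 mg/L; the series names selenite as the form, and the content of the control (CK) spray is not stated. Each group held 3 libraries of rRNA-depleted RNA. Separate plants are not mentioned for the libraries of a group, so p-values reflect the spread of these samples alone, and that spread may be technical. The leaf label could not be checked against marker genes: none of 19 marker symbols of leaf, root, nodule and flower occurs among the host gene names, and the table lists only predicted lncRNAs.

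Long non-coding RNAs are transcribed from intergenic DNA, from introns or across genes, on either strand, and are usually less abundant than mRNAs. In plants, some act on the transcription or chromatin of nearby genes, some pair with microRNAs or with other transcripts, and for most no function is known. Selenite is taken up in part through phosphate transporters and then enters the sulfur assimilation pathway. It is beneficial to plants at low supply and toxic at high supply. No function is known here for any of the 129 transcripts. No sequence of these transcripts was used here, and they are identified by name and position in the authors' assembly, whose build is not given in the sources used here.

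Depth differed between the libraries within each group. The ratio of deposited coverage to FPKM implied 2.55, 1.44 and 2.78 gigabases of aligned sequence in control 1, 2 and 3, then 1.68, 2.65 and 2.11 in low Se and 2.07, 2.97 and 2.49 in high Se. The number of transcripts above 0 ran from 26121 in control 3 to 36453 in high Se 2, with 30877, 33443 and 28093 in low Se 1, 2 and 3. Control 2 was the shallowest library and low Se 1 the next, while control 3 had the fewest transcripts above 0 and low Se 3 the next fewest. Summed over its 3 libraries, low Se had the least depth of the groups, 6.44 gigabases, beside 6.77 in control and 7.54 in high Se. The part of depth in the listings of 0 was not tested.

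Being listed at 0 in 1 whole group was not particular to low selenite. The same rule found 190 transcripts at 0 in the 3 control libraries alone (188 loci) and 38 at 0 in the 3 high Se libraries alone. Among transcripts above 0 in the other 6 libraries, 1.32% were at 0 in all of low Se, 1.77% in all of control and 0.440% in all of high Se. Applied to the 81 sets of 3 libraries that mix groups, the rule found between 14 and 251 transcripts, with a median of 50. In 6 of these 81 mixed sets it found more than 129, and in 75 fewer. The 251 were at 0 in control 2, control 3 and low Se 1, and the 246 of the next set in control 2, control 3 and low Se 3. Each of the 6 mixed sets above 129 contained control 3, the library with the fewest transcripts above 0. Sets with many detected transcripts gave low counts. Transcripts above 0, summed over the 3 libraries, came to 92413 in low Se. The mixed sets closest to this, with sums of 92034, 92082, 92113, 92628 and 92757, gave 66, 104, 72, 51 and 68 transcripts. The part of detection in the count of 129 was not tested.

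**Figure D1:**
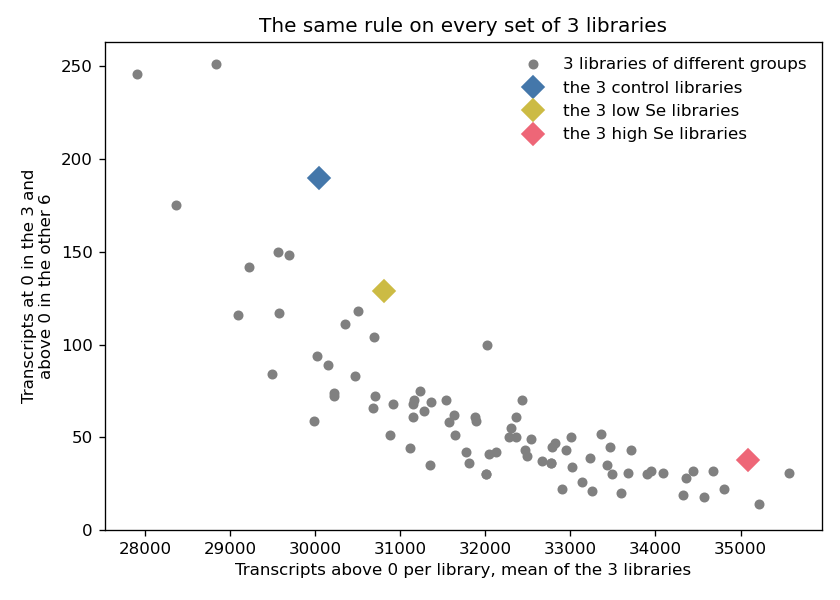
Each point is 1 set of 3 libraries: on the x axis the mean number of transcripts above 0 per library, on the y axis the transcripts at 0 in those 3 and above 0 in the other 6. The low Se group gave 129, the control group 190 and the high Se group 38, against 14 to 251 for the 81 sets that mix groups.

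The count also depended on each library. With 1 library left out, the rule asks less, and the count could only rise apart from the minimum on the mean. Leaving out low Se 1, 2 or 3 gave 357, 321 or 247 transcripts. Leaving out control 1, 2 or 3 gave 192, 213 or 237, and leaving out high Se 1, 2 or 3 gave 208, 170 or 201. Of the 9796 transcripts above 0 in all 6 control and high Se libraries at a mean of at least 0.5 FPKM, 7452 were above 0 in all of low Se, 1677 were at 0 in 1 low Se library, 538 in 2 and 129 in all 3.

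Transcripts just outside the rule mostly had more than 0.1 FPKM in the remaining low Se library, where they were above 0 by their selection. Low Se 1 alone was above 0 for 228 transcripts, at a median of 1.38 FPKM. Low Se 2 alone was above 0 for 192 (median 1.28 FPKM) and low Se 3 alone for 118 (median 1.14 FPKM). The value there was a median of 0.755, 0.660 and 0.567 times the mean of the 6 other libraries, in the same order, and was at most 0.1 FPKM for 6, 6 and 4 transcripts. In 89, 67 and 36 of these transcripts it exceeded that mean. The minimum on the mean removed only 1 transcript, MSTRG.7117.2, at 0.152 FPKM. Just inside it were MSTRG.63592.1 at 0.588, MSTRG.112276.7 at 0.665 and MSTRG.103802.1 at 0.737 FPKM.

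Most of the 129 transcripts were expressed at a low level where they were detected. Their mean over control and high Se had a median of 1.92 FPKM, with quartiles of 1.30 and 2.95. In 113 it was at least 1 FPKM, in 13 at least 5 and in 4 at least 10. The lowest of the 6 values had a median of 0.412 FPKM and was at least 1 FPKM in 20 transcripts. Single transcripts varied widely among the 6 libraries, with a median coefficient of variation of 74.2% (21.5% to 187%). No 1 library carried the set: control 1 held the highest value for 22 members, control 2 for 21 and control 3 for 21. High Se 1, 2 and 3 held it for 22, 16 and 27. High Se 2 held the lowest value most often, for 30.

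**Figure D2:**
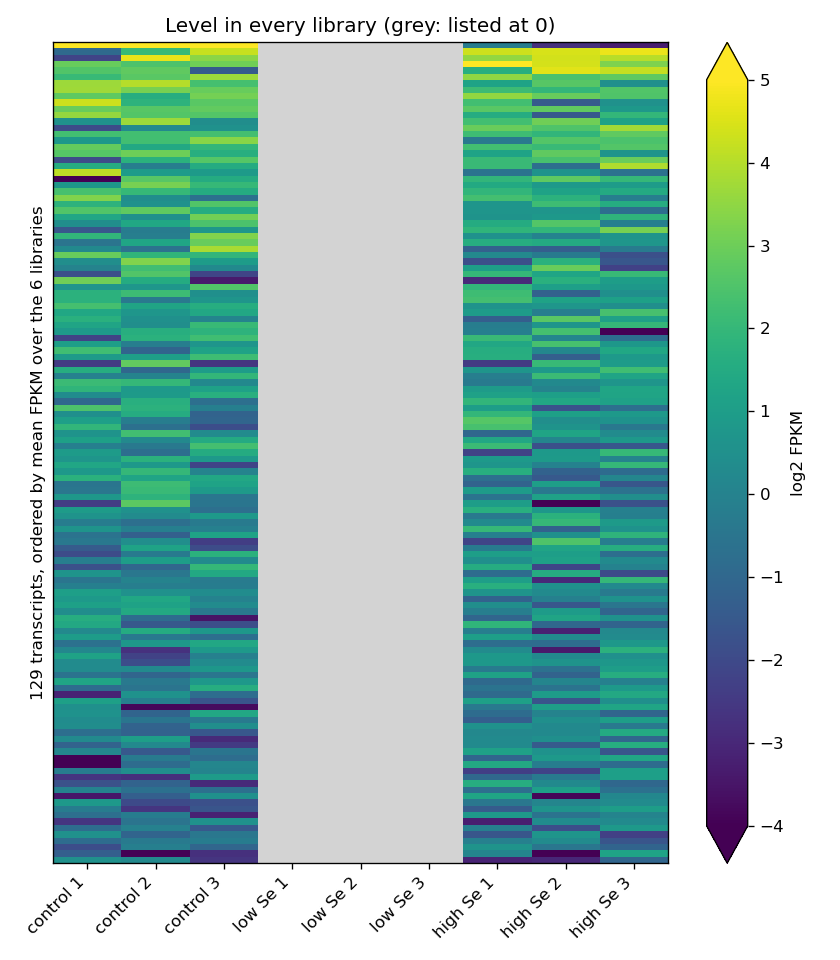
Rows are the 129 transcripts ordered by their mean over control and high Se, columns the 9 libraries, and colour the log2 FPKM, with grey for a listing of 0. The low Se columns are grey by the rule, and levels in the other 6 columns differ between libraries within a row, with a median coefficient of variation of 74.2%.

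Few reads stood behind a typical member, so a listing of 0 carries unequal weight among them. Reads were estimated as coverage multiplied by transcript length, divided by a read length of 141 bases, and are estimates and not counts. That read length was itself inferred from the deposited coverage, as the most frequent whole number of bases on thinly covered single-exon transcripts. The sum over the 6 libraries had a median of 75.5 estimated reads, and the lowest library a median of 2.39. At its own mean level, the median member would have had 8.99 estimated reads in low Se 1, 14.2 in low Se 2 and 11.3 in low Se 3. At its own lowest level, the same medians were 1.89, 2.98 and 2.38, and 28 members would have had less than 1 estimated read in low Se 1. Summed over the 3 low Se libraries, the median was 34.5 estimated reads at the mean level and 7.26 at the lowest level. At the mean level, 126 members would have had 3 or more estimated reads in every low Se library, and 59 would have had 10 or more. At the lowest level, 42 would have had 3 or more in every low Se library.

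**Figure D3:**
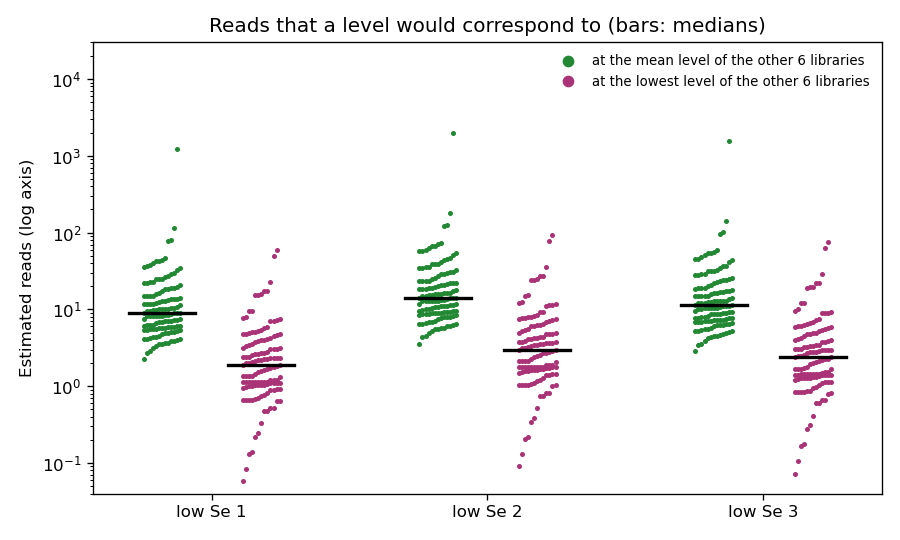
Points are the 129 transcripts and bars the medians; the y axis (log) is the number of reads that a transcript's mean or lowest level in control and high Se would have given in each low Se library. Medians were 8.99, 14.2 and 11.3 at the mean level and 1.89, 2.98 and 2.38 at the lowest level.

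Just 8 members would have had 10 or more estimated reads in every low Se library even at their lowest level. They were MSTRG.129749.1, MSTRG.77411.1, MSTRG.100041.2, MSTRG.10145.1, MSTRG.131912.1, MSTRG.112200.1, MSTRG.103823.1 and MSTRG.68442.1. This group was picked out after its values were seen. MSTRG.129749.1, a single exon of 1300 bases without strand on chromosome 7.3 (11490855 to 11492154), read 13.2, 8.92 and 7.49 FPKM over the controls against 4.52, 3.85 and 5.87 over high Se. Its least covered library still had 86.2 estimated reads. MSTRG.77411.1 is an intergenic single exon of 1836 bases on chromosome 4.3 (526436 to 528271). It read 5.25, 4.06 and 2.88 FPKM over the controls against 3.79, 2.26 and 2.80 over high Se, with at least 76.1 estimated reads in each of these libraries. At its lowest level it would have had 49.5, 78.0 and 62.3 estimated reads in low Se 1, 2 and 3. For both transcripts the 6 other libraries were thus well above 0.

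The most abundant member matched the pattern of the set least. MSTRG.515.1, an intergenic transcript of 1112 bases on scaffold 15132, had 120.7, 157.6 and 283.9 FPKM in control but 0.848, 0.149 and 0.102 in high Se. These correspond to 2432, 1788 and 6227 estimated reads against 13.8, 3.50 and 2.0. The control and high Se values did not overlap, so that MSTRG.515.1 was nearly unread at both doses, and only its few reads in high Se placed it in this set.

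Next by mean was the antisense MSTRG.40373.1, at 0.522, 4.16 and 19.1 FPKM over the controls and 19.95, 22.2 and 26.6 over high Se. Its control 1 value stands for 2.40 estimated reads. The sense-overlapping MSTRG.157824.1 on chromosome 8.4 (69153197 to 69192523, plus strand, host gene MS.gene066953) read 0.219, 25.7 and 10.8 FPKM over the controls against 11.6, 20.7 and 16.6 over high Se. Control 1 stood apart, with 1.0 estimated read, while control 2 was above every high Se library. MSTRG.131912.1 followed, at 7.45, 5.62 and 8.19 FPKM over the controls and 31.8, 21.3 and 9.48 over high Se. MSTRG.141770.1 lies within an intron of MS.gene63147 on chromosome 8.1 (43729954 to 43730230, plus strand). It read 5.92, 6.91 and 0.366 FPKM over the controls against 3.11, 24.3 and 18.7 over high Se, so the groups overlapped. Of the other 5 among the 10 most abundant, MSTRG.112200.1 and MSTRG.4787.1 were at 4.23 and 3.05 FPKM or more in each of the 6 libraries. MSTRG.69891.1 (chromosome 4.1, 48479431 to 48479846) read 12.9, 15.9 and 5.14 FPKM over the controls against 2.35, 6.36 and 1.44 over high Se. MSTRG.94122.1 (chromosome 5.2, 23091813 to 23095480, plus strand) ranged from 0.372 FPKM in high Se 2 to 20.1 in control 1.

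**Figure D4:**
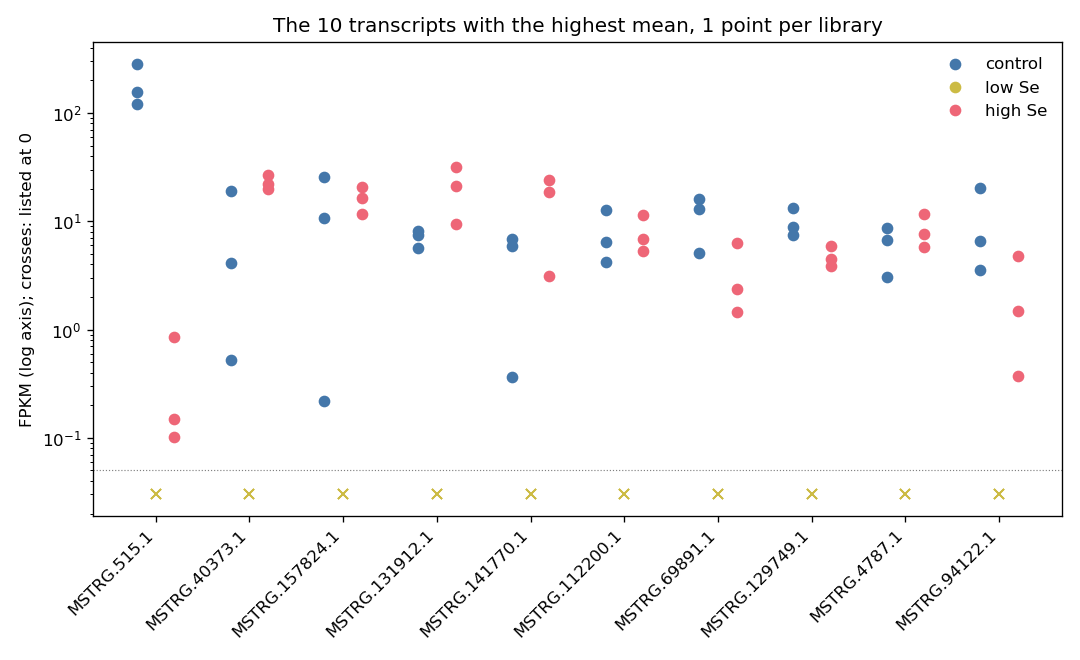
Each point is 1 library and each column 1 of the 10 transcripts with the highest mean; the y axis is FPKM on a log scale, and crosses mark a listing of 0. All low Se values are crosses, MSTRG.515.1 is at 120.7 or more in control and 0.848 or less in high Se, and MSTRG.40373.1 reaches 19.95 or more in every high Se library.

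The most even members were picked for a low coefficient of variation over the control and high Se libraries, so like levels in these groups follow from that choice. MSTRG.10145.1, of 3 exons on chromosome 1.1 (72469213 to 72469910), shares a splice junction with MS.gene006292. It had the lowest coefficient of variation of the set, 21.5%, and averaged 4.83 ± 0.0641 FPKM over the controls against 5.10 ± 1.67 over high Se (SD, n = 3 for both). Next came MSTRG.153459.1 at 28.3%, a spliced intergenic transcript of 2 exons on chromosome 8.3 that read 1.30, 1.89 and 3.18 FPKM over the controls against 2.19, 2.13 and 2.39 over high Se. MSTRG.4285.1 (30.6%), MSTRG.77411.1 (30.9%) and MSTRG.35498.1 (33.9%) completed the 5 most even. MSTRG.35498.1 (485 bases, chromosome 2.2) had at least 8.0 estimated reads in each of the 6 libraries, and MSTRG.4285.1 (340 bases, scaffold 50622) at least 4.88.

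Spliced members numbered 32: 26 had 2 exons and 6 had 3 or more. MSTRG.100041.2 had the most, 7 exons over 2551 bases of chromosome 5.3, and 34.0 to 163.0 estimated reads per library outside low Se. Of the other transcripts with 3 or more exons, MSTRG.112058.1 on chromosome 6.2 (75296783 to 75300191, minus strand) read 0.270, 3.33 and 6.21 FPKM over the controls against 4.33, 5.16 and 7.78 over high Se. MSTRG.68442.1 on chromosome 4.1 (26052742 to 26056481, minus strand) read 2.54, 1.43 and 8.48 FPKM over the controls against 1.55, 1.74 and 3.65 over high Se. MSTRG.112276.7, of 4 exons, had 0.00269 FPKM in high Se 2, or 0.148 estimated reads, the lowest value above 0 in the set. In all, 11 members were below 0.1 FPKM in at least 1 of the 6 libraries.

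By position relative to genes, 99 members were intergenic, 17 intronic, 5 antisense, 4 sense-overlapping and 4 junction-sharing. All 17 intronic members had a single exon, with means from 0.588 to 9.87 FPKM. The 5 antisense members were MSTRG.40373.1, MSTRG.112200.1, MSTRG.148039.1, MSTRG.114469.1 and MSTRG.112837.2, with means of 15.4, 7.83, 2.40, 1.90 and 1.49 FPKM. MSTRG.114469.1, antisense to MS.gene07981 on chromosome 6.3 (32194442 to 32205950), had the smallest coefficient of variation of the 5, 40.7%. The sense-overlapping members comprised both forms of MSTRG.157824, MSTRG.7245.1 and MSTRG.112276.7. Their exons held 252 to 2602 bases within intervals of 27035 to 52652 bases. The intervals of the 5 antisense members ran from 273 to 99492 bases (median 17653), with a median of 312 exon bases. The junctions of the long intervals were not checked in either class. The junction-sharing members were MSTRG.10145.1, MSTRG.28359.2, MSTRG.51120.2 and MSTRG.142738.5, with means of 4.97, 2.85, 1.47 and 0.930 FPKM. Host genes are named as the table gives them, and none of its 14400 host names matches the gene table at hand, so their functions are not given.

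The rule did not set which of control and high Se was higher, so this difference was tested, in 1 fit of all 9 libraries. The low Se values of a member, all 0 by the rule, enter the spread of that fit, and a fit of the 6 control and high Se libraries alone does not use them. Among 126 members that passed the filter of the test (a mean of at least 0.5 FPKM over 9 libraries), 1 was called, MSTRG.515.1, lower in high Se. Over all 43763 tested transcripts, MSTRG.515.1 included, 0.0229% passed in either direction and 0.00457% were called lower. The log2(FPKM + 0.1) difference of MSTRG.515.1, high Se minus control, was -8.92 ± 0.95 (SE, limma adjusted p = 0.00131). In the fit of 6 libraries its difference was the same, with a standard error of 0.69, but no member was called (limma adjusted p = 0.0713 for MSTRG.515.1). There, 9 members had an unadjusted p under 0.05, and standard errors were smaller than in the fit of 9 for 119 members and larger for 7. The call was also lost at a pseudocount of 0.01 (limma adjusted p = 0.124), without control 2 (limma adjusted p = 0.0609) and without control 3 (limma adjusted p = 0.0971). The last 3 fits left 1, 5 and 4 members with an unadjusted p under 0.05. Over fits lacking 1 library, its log2 difference ranged from -9.61 to -8.50, and the 3 control values lay far above the 3 high Se values in every case.

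In the fit of 9 libraries, 4 members had an unadjusted p under 0.05, MSTRG.515.1 among them. They made up 3.17% of the 126, beside 9.26% of all tested transcripts. Unlike the members, the tested transcripts did not have to be above 0 in each control and high Se library. The 2 shares are therefore not matched, and nothing is read from their difference. The low number of calls does not show that the other members were equal in control and high Se.

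Ranges of the 3 control and 3 high Se values did not overlap for 18 members, 9 with high Se above and 9 below. That is 6.98% in each direction, beside 7.81% above and 4.02% below over the tested transcripts, and 8.07% and 6.64% over the transcripts above 0 in all 6 libraries. The share above lies near both backgrounds. The share below lies near that of the transcripts above 0 in all 6 libraries and over that of the tested transcripts, a difference that was not tested. MSTRG.110577.1, intergenic on chromosome 6.2 (27905720 to 27906049), read 0.257, 1.18 and 1.48 FPKM over the controls against 7.64, 5.79 and 13.4 over high Se (log2 difference 3.24 ± 1.13 SE, limma adjusted p = 0.417). MSTRG.40373.1 had a log2 difference of 2.63 ± 1.11 (SE, limma adjusted p = 0.505), which became 1.34 without control 1 and 3.81 without control 3. The intronic MSTRG.45159.2 (chromosome 3.1, host gene MS.gene90412) read 0.341, 0.863 and 1.71 FPKM over the controls against 3.67, 3.76 and 8.82 over high Se. MSTRG.158056.1 and MSTRG.12612.1 came next by log2 difference among the 9 with high Se above control.

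In the opposite direction, the 806-base intergenic MSTRG.12653.1 on chromosome 1.2 (24407010 to 24407815) read 7.56, 3.67 and 3.77 FPKM over the controls against 1.18, 0.804 and 0.285 over high Se. Its log2 difference was -2.66 ± 1.20 (SE, limma adjusted p = 0.532). MSTRG.142017.1 read 11.9, 5.96 and 6.05 FPKM over the controls against 3.00, 0.354 and 3.89 over high Se. For MSTRG.94122.2 the values were 17.2, 1.92 and 1.87 FPKM over the controls and 0.668, 1.53 and 0.635 over high Se. MSTRG.24338.1 read 5.82, 6.91 and 2.97 FPKM over the controls against 1.60, 1.62 and 0.601 over high Se. None of these passed the test. The median log2 difference of the 126 tested members, high Se minus control, was 0.11, beside 0.26 over all tested transcripts. It was -0.22 for the members and 0.04 for all after quantile normalization, so the members' median changed sign with the scaling. Without control 1 it was -0.07.

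**Figure D5:**
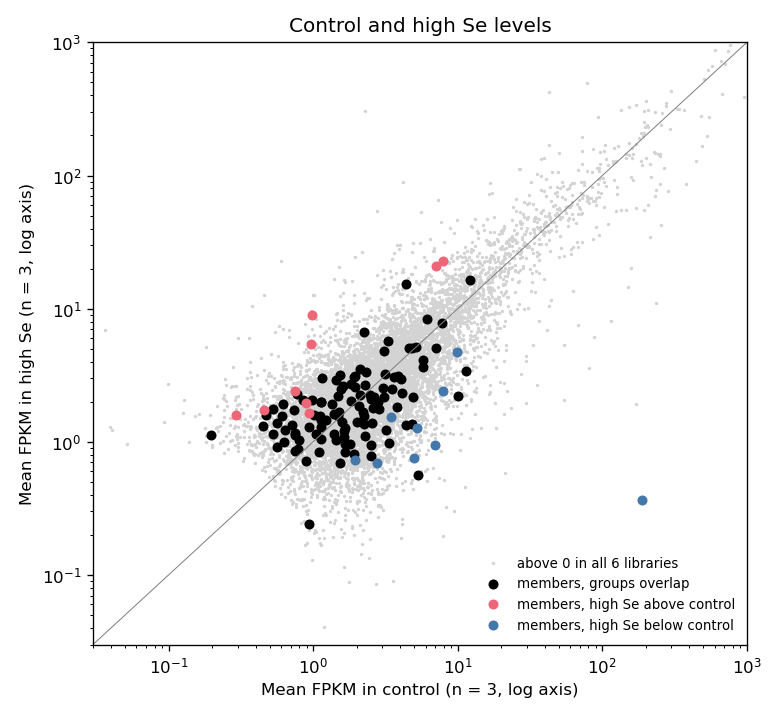
Each point is a transcript, with its mean FPKM over 3 control libraries on the x axis and over 3 high Se libraries on the y axis, both log scales; the line marks equal means. The 129 members lie among the 9796 transcripts above 0 in all 6 libraries (grey), 9 with non-overlapping ranges on each side, and MSTRG.515.1 has a mean of 187 FPKM in control and 0.366 in high Se.

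Calls in the 2 contrasts that the rule used test nothing, since the rule set the direction of all 126 tested members. For completeness, 7 members were called lower in low Se than in control. Over all tested transcripts 0.0160% were called lower and 0.0114% higher (0.0274% in all). The 0.0160% consists of these 7 members alone, so it is no separate background. Between the doses, 4 members were called higher in high Se. Over all tested transcripts 0.0183% were called higher and 0.00229% lower (0.0206% in all). The 0.0183% stands for 8 transcripts, and these 4 members are among them.

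Features that the rule did not use were compared, without a test, with those of the 43898 transcripts that averaged 0.5 FPKM or more over control and high Se. In strand, length and exons the members were close to these. Members without a strand made up 66.7%, beside 66.2% of the 43898. Their median length was 392 bases, beside 346, and 7.75% were of at least 1000 bases, beside 7.29%. Single exons were held by 75.2% of members and 76.6% of the 43898. Intergenic transcripts made up 76.7% of members and 67.3% of the 43898, and intronic ones 13.2% and 23.0%.

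The 9796 transcripts above 0 in all 6 libraries, as the members are, stood at a higher level, with a median of the mean over the 6 libraries of 2.44 FPKM beside 1.92 in members. They were longer, with a median of 546 bases and 19.6% of at least 1000 bases, and 44.0% were without strand. Of these, 62.9% were intergenic, 23.9% intronic and 70.6% of a single exon. The transcripts at 0 in control alone resembled the members in strand (66.3% without) and median length (375.5 bases), but 67.9% were intergenic, 22.6% intronic and 4.21% of at least 1000 bases. Of those at 0 in high Se alone, 73.7% were without strand, 76.3% intergenic, 18.4% intronic and 7.89% of at least 1000 bases, with a median length of 366.5 bases.

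The members were spread over 31 of the 32 chromosomes of the assembly, with 3 on scaffolds. Chromosome 7.2 held 10, chromosome 6.2 held 9, and chromosomes 1.2 and 8.4 held 8 each, while chromosome 2.3 held none. As shares of the transcripts above 0 in all 6 libraries, these are 3.21%, 3.04%, 2.12% and 2.69%, beside 1.32% overall. Chromosomes 4.1, 5.4 and 3.2, with fewer members each, had 2.68%, 2.33% and 2.15%. The chromosomes were picked after their values were seen, and the differences were not tested. No member lay within 5 kb of a member of another locus. The closest such pairs were MSTRG.111036.1 and MSTRG.111039.1 on chromosome 6.2, 12.4 kb apart, MSTRG.12820.2 and MSTRG.12824.1 on chromosome 1.2, 24.8 kb apart, and MSTRG.128821.1 and MSTRG.128827.2 on chromosome 7.2, 32.4 kb apart.

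Other listed forms of the same locus gave a readout that the rule did not use, and 17 members had at least 1. Both forms of MSTRG.157824 and of MSTRG.94122 were members. The forms of MSTRG.94122 have the same ends and 403 bases each, and share reads, so they are not independent. Of 48 other forms that were not members, 33 were above 0 in at least 1 low Se library and 15 were at 0 in all 3. Over all transcripts with a mean of 0.5 FPKM or more in the 6 libraries, 23.4% were at 0 in all 3 low Se libraries. Of the 34 other forms at this level 12 were, and the difference was not tested. Of the 48 forms, 21 are from MSTRG.112276, so they do not stand for separate loci.

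At some loci every listed form was at 0 in low Se. MSTRG.12820 on chromosome 1.2 had 3 forms. MSTRG.12820.3 was at 0, 6.91 and 3.82 FPKM in the controls and at 6.81, 2.12 and 1.98 in high Se, while MSTRG.12820.1 was above 0 in 5 of the 6 and in no low Se library. The second form of MSTRG.131912 was also at 0 in low Se, but above 0 only in high Se 1 and high Se 2, at 2.77 and 2.82 FPKM. At other loci a second form was read in low Se. MSTRG.112837.1 was at 2.09, 1.86 and 2.76 FPKM in low Se and at 2.11 to 6.96 in the other libraries, while MSTRG.112837.2 was at 0 in low Se. MSTRG.64366.3 was at 0.124, 0.218 and 0.197 FPKM in low Se, below every control library (1.76, 2.54 and 0.982 FPKM), while high Se 3 was lower still at 0.0418. MSTRG.80682.3 was at 0.734, 2.27 and 0.704 FPKM in low Se and at 0.183 to 2.72 in the other 6. MSTRG.129637.2 had 0, 1.66 and 1.84 FPKM in low Se.

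The locus of MSTRG.100041.2 was read in low Se through other forms. MSTRG.100041.4, of 8 exons, had 2.80, 0.330 and 0.780 FPKM in low Se 1, 2 and 3, and MSTRG.100041.6, of 4 exons, had 0.50, 1.08 and 2.41. MSTRG.100041.3 had 2.67, 0 and 0.00460 FPKM in low Se. The forms of this locus overlap, and their values depend on how the authors' software divided reads among them. For MSTRG.100041.2, with its 7 exons, the listing of 0 therefore concerns 1 form and not the locus.

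Listed transcripts of other loci within 5 kb were found for 71 members, 113 transcripts in all, none of them a member. Of these 113, 73 were above 0 in at least 1 low Se library, 19 were above 0 in all 3 and 40 were at 0 in all 3. For 25 of the 113, the mean was higher in low Se than over the other 6 libraries. MSTRG.112843.1, which overlaps the interval of MSTRG.112837.2, averaged 9.09 FPKM in low Se beside 0.543 over the other 6. Among the 92 neighbours averaging 0.5 FPKM or more in the other 6 libraries, 34 were at 0 in all of low Se. The share over all transcripts at this level was 23.4%, and the difference was not tested. MSTRG.70678.1, at 304 bases from MSTRG.70677.1, was at 3.37, 2.90 and 2.45 FPKM in low Se and at 2.48 to 8.16 in the other libraries. MSTRG.113814.1, at 469 bases from MSTRG.113813.1, was at 4.53, 1.28 and 1.23 FPKM in low Se and at 1.77 to 4.06 in the others. In contrast, MSTRG.131908.1, at 314 bases from MSTRG.131912.1, was at 0 in low Se and had 5.12, 2.61 and 1.24 FPKM in high Se, with control 2 alone above 0 among the controls. MSTRG.112201.1, which overlaps the interval of MSTRG.112200.1, was above 0 in 5 of the 6 other libraries and in none of low Se. These neighbours were named after their values were seen.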

How the data were processed

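For each transcript and library the deposited table gives FPKM and a mean coverage per base, per the file headers; the coverage is a signal that grows with depth. A value of 0.0001 stands in place of 0 and was set back to 0. Coding potential scores from CPC and CNCI were also deposited and were used only to describe the table. HISAT2, Bowtie2, StringTie and edgeR are named, without versions, in the submitters' processing notes. The assembly build is not given in the sources used here. Transcript classes follow the deposited class codes.

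Levels as log2(FPKM + 0.1) of the 9 libraries were fitted together in limma (version 3.58.1, R 4.3.3; variance trend on) for the 43763 transcripts averaging 0.5 FPKM or more. Calls needed an adjusted p (Benjamini-Hochberg) under 0.05. With no counts in the table, no count test or counting interval is given. Deviations of same-numbered libraries had Pearson's r of -0.0302 to 0.00147 over 9 pairs, so no pairing by number was seen in these values. Python 3.11.15, NumPy 2.4.6, pandas 2.3.3 and matplotlib 3.10.9 did the rest, and the fit was tested on simulated data. Members, lists and the rule for the 33 members named by value (highest, steadiest, best read, most spliced, most different between control and high Se, called, with forms read in low Se, or at the edge of the rule) were chosen with earlier results of these data known. Called here covers every pairwise comparison, also the contrasts that the rule used and that test nothing. Further members, such as a whole class, all 8 of a count or the closest pairs, were named after their values were seen.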

Additional observations from a re-analysis of the deposited data

How the results depend on the processing

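Requiring a mean of 2 FPKM reduced the 129 members to 61, and requiring 0.5 FPKM in each of the 6 libraries reduced them to 52; the other 6 settings with all libraries gave 113 to 153. One library fewer gave 170 to 357. For high Se against control, the 10 calls over all transcripts fell to 1 at pseudocount 0.01 and to 1 when the 6 libraries were fitted alone. They numbered 36 at pseudocount 1, 49 unfiltered, 2 at a mean of 2 FPKM, 6 with no variance trend, 26 under library weights and 4 under the replicate block, and ranged from 1 to 30 over fits lacking 1 library. The 1 called member was lost (0) at pseudocount 0.01, where limma left 1 member with an unadjusted p under 0.05, and when the 6 libraries were fitted alone, where it left 9. The range was 0 to 1 over fits lacking 1 library. The members' median log2 difference, 0.11, was -0.028 at a mean of 2 FPKM, 0.0034 under median-of-ratios scaling and -0.22 under quantile scaling, and ranged from -0.068 to 0.13 over fits lacking 1 library. Over all tested transcripts the median was 0.26, then 0.17 and 0.04 under these scalings.

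The contrasts that chose the members test nothing, and their counts are given for completeness. The 7 calls of low Se against control numbered 2 at pseudocount 1, 12 unfiltered, 4 at a mean of 2 FPKM, 1 with no variance trend, 4 under the replicate block and 1 with the 6 libraries alone, and ranged from 1 to 6 over fits lacking 1 library. The 4 calls between doses numbered 1 at pseudocount 0.01, 8 unfiltered, 1 at a mean of 2 FPKM, 11 under library weights, 2 under the replicate block and 1 with the 6 libraries alone. They numbered 0 with no variance trend, where 123 members had an unadjusted p under 0.05 in limma, and ranged from 0 to 5 over fits lacking 1 library. The replicate block changed no call of a single named member between control and high Se. The cause of these changes was not tested.

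Of the 30 named members fitted, 4 changed sign between control and high Se with all libraries kept, none of them called. Under median-of-ratios scaling the log2 difference was -0.081 for MSTRG.10145.1, -0.030 for MSTRG.112200.1 and -0.028 for MSTRG.112837.2. Quantile scaling gave -0.23 for MSTRG.112837.2. Library weights gave -0.17 for MSTRG.112837.2, -0.034 for MSTRG.112200.1 and 0.022 for MSTRG.80682.1. Over fits lacking 1 library, sign changes were found for 9 named members. Their ranges were -0.21 to 0.22 for MSTRG.10145.1, -0.28 to 0.51 for MSTRG.112200.1, -0.70 to 1.11 for MSTRG.112837.2, -0.13 to 0.49 for MSTRG.153459.1 and -0.071 to 3.10 for MSTRG.157824.1. For MSTRG.35498.1 the range was -0.0035 to 0.53, for MSTRG.64366.2 -0.49 to 0.17, for MSTRG.68442.1 -1.08 to 0.17 and for MSTRG.80682.1 -0.67 to 0.30. Few estimated reads limit the results for most members, and a listing of 0 at that depth does not show that a transcript is absent.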
